A study of Mus musculus with 16 samples.

Results

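The genes described here encode the enzymes of the urea cycle and of amino acid breakdown, compared between the livers of A/J and C57BL/6J mice. They were chosen by name as 41 enzyme genes in 10 pathways, and every probe whose array gene symbol was 1 of these names was taken: 52 of 25697 probes, for 35 of the 41 genes. *Gls2*, *Hgd*, *Acmsd*, *Amdhd1*, *Sds* and *Sdsl* had no probe under their names and are not analysed here. Of the 35, 34 were bright enough to be tested, with 49 probes; *Tat* (tyrosine aminotransferase, the first step of tyrosine breakdown) was not, its lone probe averaging 7.90 in A/J and 7.95 in C57BL/6J, below the array median of 8.01.

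Total liver RNA of male mice was measured on Illumina Mouse Ref 8 bead arrays, in 8 A/J and 8 C57BL/6J samples. Both are inbred strains, all mice were on a High Fat High Calorie (HFHC) diet used to model fatty liver, and there was no chow-fed group in these samples, so strain and response to the diet cannot be told apart. By the labels the mice were 8 weeks old. The methods describe mice that were 8 weeks old or somewhat older and a feeding period of 8 weeks. The labels do not say whether their 8 weeks include that period. A sample is described in the methods as RNA pooled from a pair of mice. No label says whether the pools of a strain held separate mice, and the P values therefore cover only the spread among these 16 samples.

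Amino acids that are not used for protein are broken down mainly in the liver. The amino group ends as ammonia or on glutamate and aspartate and enters the urea cycle, which runs in the hepatocytes around the portal vein, and the carbon skeletons feed the citric acid cycle, glucose or ketone bodies. Each amino acid has its own chain of enzymes, and some of these chains also make other products: taurine from cysteine, nicotinamide nucleotides from tryptophan, and one-carbon units from histidine and glycine.

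The strain differences past the threshold were in 5 enzymes of 4 pathways and ran in both directions. A gene was called where limma gave an adjusted P of 0.05 or less and the fold change was at least 1.5. By that rule 5 of 34 genes were called (14.7%), beside 5.29% of the 9051 genes tested on the array. With only the 8000 brightest probes kept, 5 of 32 of these genes were called, beside 437 of 5846 genes. *Csad*, *Bckdhb* and *Hal* were lower in A/J, and *Cth* and *Afmid* were higher, where 3.16% of all genes were called lower and 2.13% higher. By adjusted P alone 13 of the 34 passed (38.2%), 7 higher and 6 lower in A/J, beside 28.1% of all genes. The median log2 difference, A/J minus C57BL/6J, was 0.018 over the 34 genes and 0.013 over all genes, whereas the median absolute difference was 0.162 and 0.098.

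**Figure D1:**
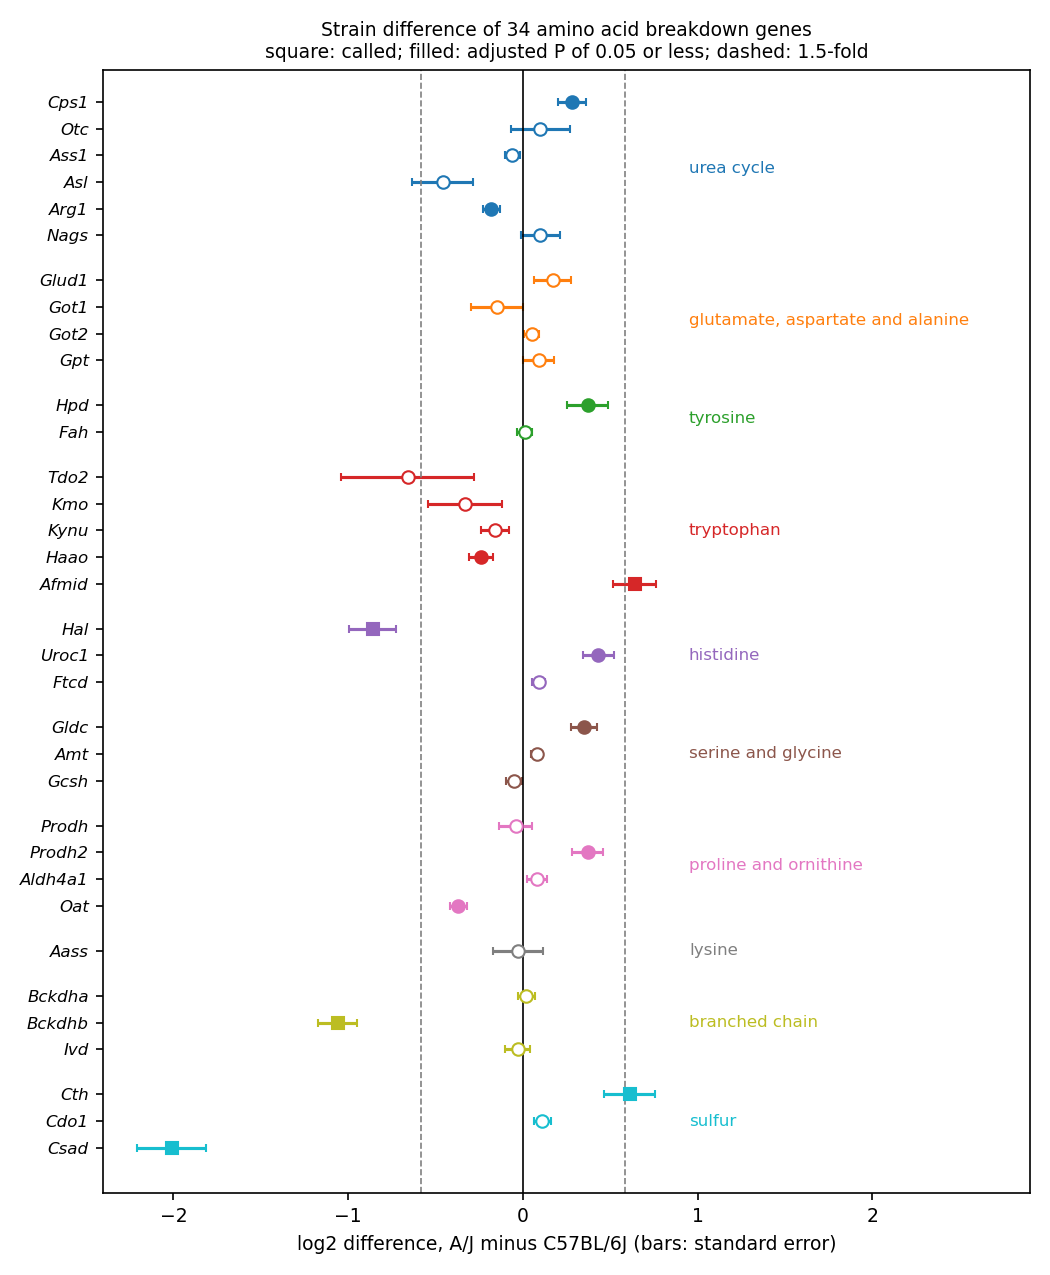
Log2 difference, A/J minus C57BL/6J, of the 34 tested genes with its standard error (n = 8 per strain), by pathway. Squares are the 5 called genes, filled symbols passed the adjusted P, and the dashed lines mark 1.5-fold. *Csad* stands farthest out at -2.01, and 13 of the 34 genes lie within 0.1 of no difference.

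The signals came from liver tissue by its markers, and 3 samples also held exocrine pancreas signal. The 9 tested of 12 hepatocyte markers averaged 13.38 to 13.68 in A/J samples and 13.40 to 13.55 in C57BL/6J samples. Over the 15 tested of 17 exocrine pancreas markers, samples 4 and 7 of A/J averaged 10.63 and 10.48, and sample 7 of C57BL/6J averaged 12.42, whereas the other 13 samples ran from 8.15 to 8.85. Without these 3 samples the same 5 genes were called. In tissue RNA, fewer cells of a type and less RNA per cell cannot be told apart.

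Of the 5 called genes 4 have a promoter window in the RefSeq table, and these are shown because the strain differences of *Csad*, *Bckdhb*, *Hal* and *Afmid* are those the results turn on. Each window runs from 250 bases before to 50 bases after the annotated start, on the gene's strand in build GRCm38.p6, which is the C57BL/6J genome; A/J sequence was not used here. Capitals mark 4 short motifs, read on both strands. Of 32817 promoter windows, 13.6% hold the TATA box searched (TATAAA), 37.4% hold the CCAAT box, 35.6% hold the GC box searched (GGGCGG), and 20.8% hold the core of the cyclic AMP response element (TGACG). No 2 of the matches shown overlap.
Csad, chr15:102205003-102205302, minus strand: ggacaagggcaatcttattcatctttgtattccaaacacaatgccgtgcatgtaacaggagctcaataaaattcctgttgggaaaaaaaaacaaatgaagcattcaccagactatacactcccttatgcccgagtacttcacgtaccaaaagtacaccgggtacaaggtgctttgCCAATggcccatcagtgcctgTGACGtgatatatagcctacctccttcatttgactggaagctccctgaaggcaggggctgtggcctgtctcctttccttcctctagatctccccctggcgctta
Hal, chr10:93488518-93488817, plus strand: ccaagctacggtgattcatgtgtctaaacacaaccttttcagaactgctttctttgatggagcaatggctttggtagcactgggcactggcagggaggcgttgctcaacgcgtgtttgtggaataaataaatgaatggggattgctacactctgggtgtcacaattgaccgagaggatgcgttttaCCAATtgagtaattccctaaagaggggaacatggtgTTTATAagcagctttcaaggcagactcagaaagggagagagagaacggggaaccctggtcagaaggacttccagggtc
Bckdhb, chr9:83924887-83925186, plus strand: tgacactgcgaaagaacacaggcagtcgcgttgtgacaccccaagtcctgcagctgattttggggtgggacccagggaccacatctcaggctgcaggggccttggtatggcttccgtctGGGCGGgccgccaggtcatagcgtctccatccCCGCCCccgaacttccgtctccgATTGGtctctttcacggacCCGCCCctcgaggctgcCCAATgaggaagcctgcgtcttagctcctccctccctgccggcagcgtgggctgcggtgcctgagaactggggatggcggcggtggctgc
Afmid, chr11:117825669-117825968, plus strand: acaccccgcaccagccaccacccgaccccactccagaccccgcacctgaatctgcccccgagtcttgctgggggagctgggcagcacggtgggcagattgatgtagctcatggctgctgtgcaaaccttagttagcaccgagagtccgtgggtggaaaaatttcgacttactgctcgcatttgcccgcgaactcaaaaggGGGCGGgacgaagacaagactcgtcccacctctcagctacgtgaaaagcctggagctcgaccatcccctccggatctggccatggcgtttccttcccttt
The *Csad* window holds CCAAT with its first base 75 bases before the start and TGACG 54 bases before it. *Hal* has CCAAT 64 bases before the start and TATAAA, on the other strand, 28 bases before it. *Bckdhb* has CCAAT at 76 and 40 bases and GGGCGG at 131, 99 and 57 bases before the start, and *Afmid* has 1 GGGCGG, 50 bases before it. The *Afmid* window lies inside the gene's span (chr11:117825503-117839908), so its start is not the outermost end of the gene. The table also holds a second start for *Csad* and for *Bckdhb*, whose windows are not shown, and *Cth* is named only. These matches are letters in a reference sequence and carry no value from the arrays.

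Among the sulfur amino acid genes an enzyme gene of taurine synthesis was far lower in A/J, and the cysteine-forming step was higher. *Csad* (chr15:102176997-102205052) encodes cysteine sulfinic acid decarboxylase, which makes the precursor of taurine. Its log2 signal had a lowest value of 9.28, a median of 9.51 and a highest of 10.03 in A/J, against 10.66, 11.73 and 12.09 in C57BL/6J. All 8 A/J samples lay below all 8 C57BL/6J samples, and C57BL/6J samples 3 and 8, at 10.66 and 10.70, lay nearest to A/J. The means were 9.55 ± 0.229 in A/J and 11.56 ± 0.571 in C57BL/6J (SD, n = 8 each), a log2 difference of -2.01 ± 0.198 (SE) or 4.02-fold lower in A/J (limma adjusted P = 4.77e-07). *Csad* had the largest absolute difference of the 34 genes.

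*Cth* (chr3:157894248-157925081) encodes cystathionine gamma-lyase, which releases cysteine from cystathionine. Its signal ran from 11.24 over a median of 11.68 to 12.51 in A/J, and from 10.74 over 11.22 to 11.48 in C57BL/6J. The strains overlapped, with 7 of 8 A/J samples above every C57BL/6J sample. *Cth* averaged 11.74 ± 0.365 in A/J and 11.14 ± 0.272 in C57BL/6J (SD, n = 8 each), 1.52-fold higher in A/J (adjusted P = 0.00489). The call rests on the fold threshold: without A/J sample 5, which gave the value of 12.51, the log2 difference was 0.50 in place of 0.61 and fell short of 1.5-fold, with an adjusted P of 0.00432. Leaving out C57BL/6J sample 1, 3 or 4 also ended the call, at 0.58, 0.55 and 0.56. A second *Cth* probe was too dim to test. *Cdo1*, cysteine dioxygenase, which feeds the *Csad* enzyme, averaged 14.36 ± 0.0871 in A/J and 14.24 ± 0.0982 in C57BL/6J and did not pass (adjusted P = 0.094).

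In branched chain breakdown 1 subunit of a complex was called and its partner was not. *Bckdhb* (chr9:83925111-84124240) encodes the beta subunit of the E1 component of branched chain keto acid dehydrogenase, the committed step for leucine, isoleucine and valine. The lowest, median and highest *Bckdhb* signals were 10.23, 10.58 and 10.84 in A/J, against 11.29, 11.59 and 12.04 in C57BL/6J. The strains did not overlap. The mean was 10.57 ± 0.207 in A/J and 11.63 ± 0.277 in C57BL/6J (SD, n = 8 each), 2.08-fold lower in A/J (adjusted P = 1.32e-06). *Bckdha*, the alpha subunit of the same component, averaged 12.69 ± 0.0938 in A/J and 12.67 ± 0.101 in C57BL/6J (adjusted P = 0.805). *Ivd*, isovaleryl-CoA dehydrogenase of the leucine chain, averaged 12.28 ± 0.146 in A/J and 12.31 ± 0.16 in C57BL/6J and did not pass (adjusted P = 0.831).

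Consecutive enzymes of histidine breakdown differed in opposite directions. *Hal* (chr10:93488768-93516761) encodes histidine ammonia-lyase, which takes the amino group off histidine. *Hal* signals were 11.61 at the lowest, 12.03 at the median and 12.55 at the highest in A/J, against 12.71, 12.88 and 13.28 in C57BL/6J. Every A/J sample lay below every C57BL/6J sample. The means were 12.07 ± 0.351 in A/J and 12.93 ± 0.207 in C57BL/6J (SD, n = 8 each), 1.82-fold lower in A/J (adjusted P = 8.26e-05). *Hal* is a marker of periportal hepatocytes; the other 6 tested of 7 periportal markers averaged 11.21 to 11.75 in A/J and 11.35 to 12.13 in C57BL/6J, with a median log2 difference of -0.18 and none called, and their part in the *Hal* difference was not tested. *Uroc1*, urocanase, which acts on the product of the *Hal* enzyme, was higher in A/J but under the fold threshold, at 13.57 ± 0.141 in A/J and 13.14 ± 0.227 in C57BL/6J (log2 difference 0.43, adjusted P = 0.00131). *Ftcd*, which passes the formimino group of histidine to folate, had a log2 difference of 0.09 (adjusted P = 0.0663).

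**Figure D2:**
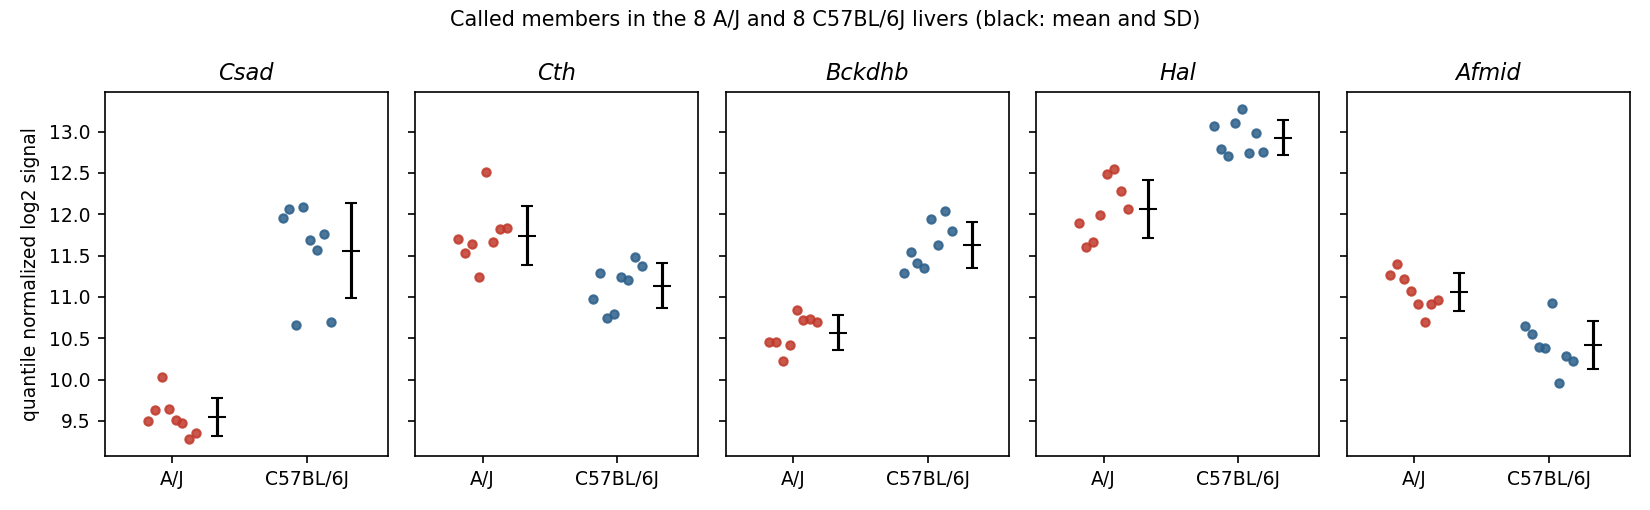
Quantile normalized log2 signal of the 5 called genes in every sample, A/J at the left and C57BL/6J at the right of each panel, with mean and SD in black (n = 8 each). The strains do not overlap in *Csad*, *Bckdhb* and *Hal*, and overlap in *Cth* and *Afmid*; 1 A/J sample of *Cth* stands at 12.51.

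The tryptophan to kynurenine chain held the 5th called gene and also *Tdo2*, the gene with the largest spread within a strain. *Afmid* (chr11:117825503-117839908) encodes the formamidase that releases kynurenine. On its brightest probe the signal ran from 10.70 over a median of 11.02 to 11.40 in A/J, and from 9.96 over 10.39 to 10.93 in C57BL/6J. The strains overlapped, with 5 of 8 A/J samples above all C57BL/6J samples. *Afmid* averaged 11.06 ± 0.23 in A/J and 10.42 ± 0.294 in C57BL/6J (SD, n = 8 each), 1.55-fold higher in A/J (adjusted P = 0.000696), and without C57BL/6J sample 6 the log2 difference was 0.57 and fell short of the fold threshold.

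*Afmid* was measured by 7 kept probes, which is more than for any other of these genes, and all 7 were higher in A/J. Their log2 differences ran from 0.55 to 0.70, all 7 passed the adjusted P (0.000633 to 0.00228), and 5 passed the fold threshold. A pair of the probes shares 49 of 50 bases, so that the 7 probes read 6 separate stretches. The start of *Afmid* overlaps that of *Tk1*, the thymidine kinase gene, which runs the other way (chr11:117815519-117826087). The brightest *Tk1* probe had 10.05 ± 0.206 in A/J and 9.53 ± 0.315 in C57BL/6J (SD, n = 8 each). Its log2 difference of 0.52 passed the adjusted P (0.00414) and not the fold threshold. The other *Tk1* probes were dimmer and also higher in A/J, by 0.13 (adjusted P = 0.0705) and 0.16 (adjusted P = 0.00466). On the probe with 0.16 the strains did not overlap.

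*Csad*, *Bckdhb*, *Hal* and *Cth* were each measured by 1 kept probe, like 26 of the 34 genes. For *Csad*, *Bckdhb* and *Hal*, a lower signal from less RNA and one from a base difference under the probe in A/J cannot be told apart with these arrays. Among the other genes with several probes, *Cps1* (0.28 and 0.45), *Gldc* (0.35 and 0.43), *Glud1* (0.17 and 0.29) and *Ftcd* (0.09 and 0.11) gave the same direction on both probes. The *Asl* probes, at -0.46 and -0.42, share 44 bases and are 1 stretch in effect. *Prodh2* disagreed: its brightest probe was higher in A/J by 0.37, whereas the other probes, which share 49 bases with each other, gave -0.02 and 0.02. *Aass* gave -0.03 on its brightest probe and 0.29 and 0.20 on the others, with none past the adjusted P.

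**Figure D3:**
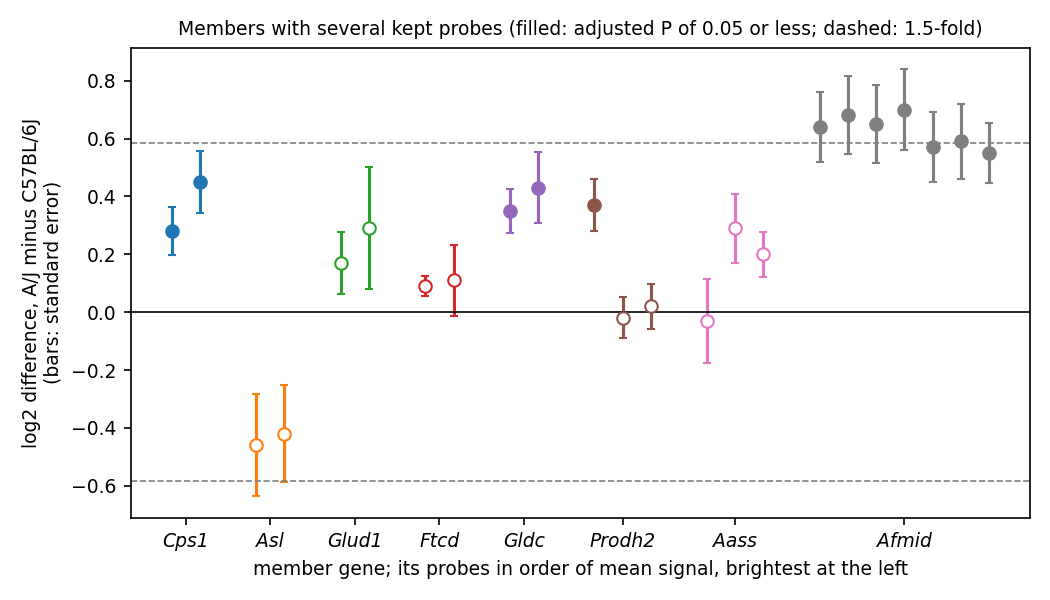
Log2 difference, A/J minus C57BL/6J, with its standard error for each kept probe of the 8 genes that have several, brightest probe at the left of each gene. Filled symbols passed the adjusted P. The 7 *Afmid* probes lie between 0.55 and 0.70, and the *Prodh2* probes split between 0.37 and values near 0.

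*Tdo2* (tryptophan dioxygenase, the entry step of the chain) had the largest difference among genes that did not pass. Its signal ran from 9.59 over a median of 10.62 to 11.51 in A/J, and from 10.08 over 11.21 to 12.78 in C57BL/6J. The strains overlapped over most of their range. The log2 difference was -0.66 ± 0.379 (SE, adjusted P = 0.226). *Kmo*, kynurenine monooxygenase, differed by -0.33 (adjusted P = 0.289) and *Kynu*, kynureninase, by -0.16 (adjusted P = 0.166). *Haao*, which makes the quinolinate precursor, was lower in A/J and under the fold threshold, at 13.57 ± 0.14 in A/J and 13.81 ± 0.147 in C57BL/6J (adjusted P = 0.0147).

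The spread of *Tdo2* within a strain followed the sample numbers. In A/J, samples 1 to 4 lay at 9.59 to 10.27 and samples 5 to 8 at 10.97 to 11.51. In C57BL/6J, samples 1 to 4 lay at 10.08 to 10.86 and samples 5 to 8 at 11.57 to 12.78. Samples 5 to 8 were thus higher in both strains, by 1.14 in A/J and 1.68 in C57BL/6J, with no overlap. The labels give no meaning to these numbers, and the split was chosen after results of these data were known, so it is given with no test of its own. *Kmo* (0.66 higher in A/J samples 5 to 8 and 0.78 in those of C57BL/6J) and *Bckdhb* (0.36 and 0.45) also had no overlap between the 2 sets in either strain. These 3 are 8.82% of the 34 genes, beside 5.82% of all genes. *Otc* (0.45 in A/J and 0.77 in C57BL/6J) and *Aass* (0.33 and 0.64) were on average higher in samples 5 to 8 of both strains, with an overlap in A/J. *Cth* was likewise higher on average (0.44 and 0.38), with an overlap in both strains. Others were on average lower in samples 5 to 8 of both strains. *Asl* (log2 differences of -0.27 in A/J and -0.58 in C57BL/6J) and *Haao* (-0.18 and -0.20) had an overlap in A/J only. *Hpd* (-0.24 and -0.43) and *Csad* (-0.30 and -0.26) had an overlap in both strains. *Afmid* gave -0.37 in A/J, with no overlap, and -0.14 in C57BL/6J, with an overlap. *Hal* was higher in samples 5 to 8 by 0.56 in A/J, with no overlap, and by 0.02 in C57BL/6J, with an overlap.

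With these sets of samples as a term in the limma fit, *Tdo2* was called lower in A/J (log2 difference -0.66, adjusted P = 0.00537). Its difference was -0.94 in samples 5 to 8 alone (adjusted P = 0.0179). In samples 1 to 4 alone it was -0.39 and not called (adjusted P = 0.178). Without the 3 samples with pancreas signal, and without this term, it was -0.47 (adjusted P = 0.45). The sets were chosen with results of these data known, so the P values of fits that use them are description only. *Csad* and *Bckdhb* kept their differences within both sets: *Csad* gave -1.99 in samples 1 to 4 and -2.03 in samples 5 to 8, and *Bckdhb* gave -1.01 and -1.11. *Hal* was called in both and gave -1.13 in samples 1 to 4 and -0.59 in samples 5 to 8. *Cth* gave 0.58 in samples 1 to 4, under the fold threshold, and 0.63 in samples 5 to 8, and *Afmid* was not called in samples 5 to 8 (0.52, adjusted P = 0.0725). *Asl* was called lower in A/J in samples 1 to 4 alone (-0.62, adjusted P = 0.0178). Periportal markers averaged 11.21 to 11.44 in A/J samples 1 to 4 and 11.39 to 11.75 in A/J samples 5 to 8, and 11.35 to 11.57 and 11.89 to 12.13 in the same sets of C57BL/6J, so that the sets overlapped in A/J and not in C57BL/6J. The average of the pericentral markers overlapped between the sets in both strains. *Glul*, which is 1 of them, did not: it lay at 8.80 to 9.38 in samples 1 to 4 and 9.70 to 10.09 in samples 5 to 8 of A/J. In C57BL/6J samples 1 to 4 lay at 9.23 to 9.41 and samples 5 to 8 at 10.55 to 10.86. The part of these cells in the *Tdo2* values was not tested.

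**Figure D4:**
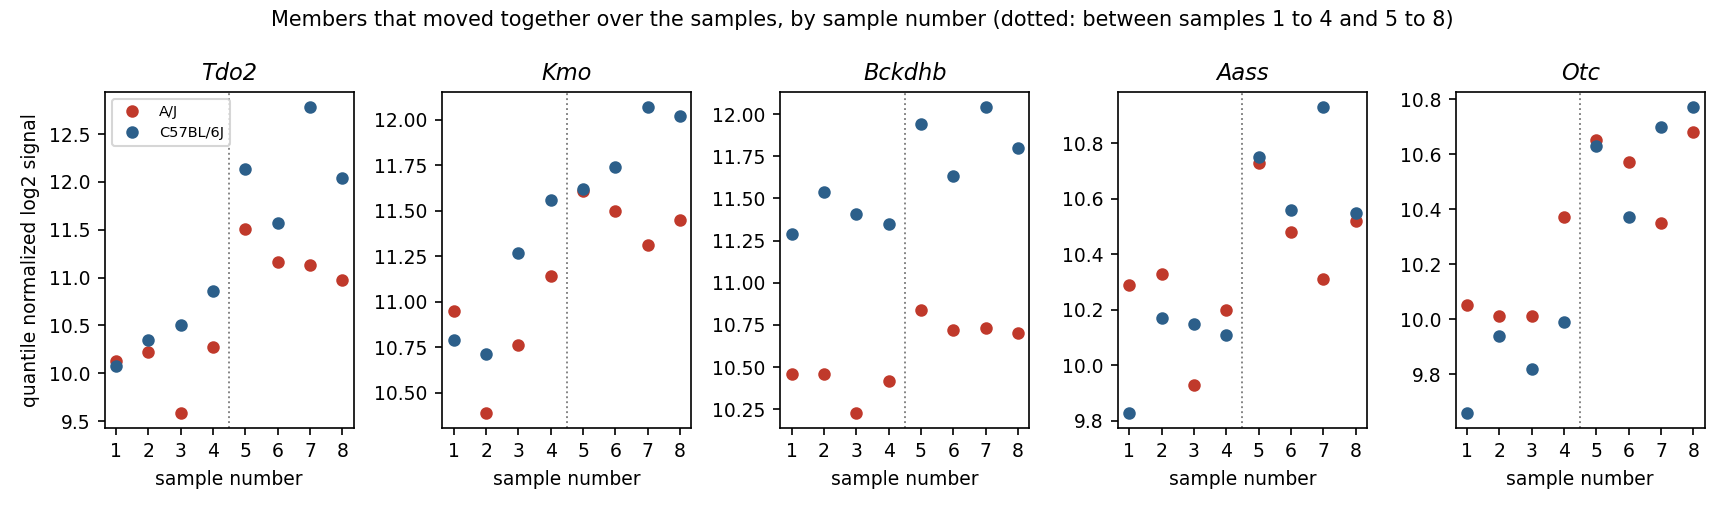
Quantile normalized log2 signal of *Tdo2*, *Kmo*, *Bckdhb*, *Aass* and *Otc* against sample number, A/J in red and C57BL/6J in blue, 1 point per sample. The dotted line parts samples 1 to 4 from samples 5 to 8. In *Tdo2*, samples 5 to 8 of A/J lie at 10.97 to 11.51 and those of C57BL/6J at 11.57 to 12.78, above samples 1 to 4 of the same strain. The labels do not say whether the numbers are an order.

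No urea cycle gene was called, of 6 tested. *Cps1* (carbamoyl phosphate synthetase, which brings ammonia into the cycle) ran from 14.20 to 14.56 in A/J and from 13.80 to 14.36 in C57BL/6J, and was 1.21-fold higher in A/J (adjusted P = 0.0158). *Arg1* (arginase, which splits off urea) ran from 13.98 to 14.29 in A/J and from 14.22 to 14.41 in C57BL/6J, and was 1.13-fold lower in A/J (adjusted P = 0.0126). A second, dimmer *Cps1* probe was 1.37-fold higher in A/J (limma adjusted P = 0.00385), with 7 of 8 A/J samples above every C57BL/6J sample. The first and last enzymes of the cycle thus passed the adjusted P in opposite directions, both under 1.5-fold. *Asl*, argininosuccinate lyase, averaged 10.71 ± 0.395 in A/J and 11.17 ± 0.382 in C57BL/6J (log2 difference -0.46, adjusted P = 0.0638). *Otc* (ornithine transcarbamylase) had a log2 difference of 0.10, *Ass1* (argininosuccinate synthase) of -0.06, and *Nags*, whose enzyme makes the activator of carbamoyl phosphate synthetase, of 0.10, none of which passed.

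*Oat* (ornithine aminotransferase) had the smallest adjusted P among the genes under the fold threshold. Its signal had a lowest value of 13.83, a median of 13.98 and a highest of 14.12 in A/J, against 14.20, 14.34 and 14.47 in C57BL/6J. The strains did not overlap, although the log2 difference was only -0.37 ± 0.0498 (SE, adjusted P = 2.16e-05). *Csad*, *Bckdhb*, *Hal* and *Oat* were the genes without overlap, 4 of 34 (11.8%), beside 9.19% of all genes. *Oat* also marks pericentral hepatocytes, and 8 tested of the 9 other pericentral markers averaged 10.56 to 10.65 in A/J and 10.37 to 10.76 in C57BL/6J; 1 of them, *Cyp1a2*, was called higher in A/J (0.79), and their part in the *Oat* difference was not tested. In the same pathway *Prodh2*, hydroxyproline dehydrogenase, had 13.29 ± 0.142 in A/J and 12.91 ± 0.233 in C57BL/6J on its brightest probe (adjusted P = 0.00487). *Prodh* (proline dehydrogenase) differed by -0.04 and *Aldh4a1*, whose enzyme turns the shared product into glutamate, by 0.08.

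Of the glycine cleavage system, *Gldc*, the decarboxylating subunit, was higher in A/J, at 13.66 ± 0.127 in A/J and 13.31 ± 0.187 in C57BL/6J (log2 difference 0.35, adjusted P = 0.00221). The partner subunits *Amt* (8.19 in A/J and 8.11 in C57BL/6J) and *Gcsh* (8.14 and 8.19) were measured near the array median and did not pass. *Hpd*, hydroxyphenylpyruvate dioxygenase of tyrosine breakdown, was higher in A/J, at 13.34 ± 0.185 in A/J and 12.96 ± 0.315 in C57BL/6J (log2 difference 0.37, adjusted P = 0.0266). *Fah*, the last enzyme of that chain, differed by 0.01. None of the 4 tested genes of glutamate, aspartate and alanine exchange passed: *Glud1* (glutamate dehydrogenase) differed by 0.17, the aspartate aminotransferases *Got1* and *Got2* by -0.15 and 0.05, and *Gpt* (alanine aminotransferase) by 0.09. *Aass*, which opens lysine breakdown, differed by -0.03.

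The other genes of these pathways, with their transporters and regulators, were taken from a list of 94, of which 72 were tested. Of these, 7 were called (9.72%), beside 5.29% of all genes, 3 higher and 4 lower in A/J. The regulators and receptors gave 3 of the 7 calls, from 11 tested genes (27.3%). The list was written with earlier results of these data known. By adjusted P alone 18 of the 72 genes passed (25.0%, beside 28.1% of all genes), 8 higher and 10 lower. *Atf4*, a transcription factor of the amino acid response, had a lowest value of 8.42, a median of 8.71 and a highest of 8.90 in A/J, against 10.21, 10.44 and 10.72 in C57BL/6J. The strains were far apart on its 1 kept probe, 3.32-fold lower in A/J (adjusted P = 3.13e-11). *Slc7a2*, a transporter of arginine, ornithine and lysine, was lower in A/J on both of its probes, by log2 differences of -0.95 and -0.66. *Hsd17b10*, which acts in isoleucine breakdown, was lower in A/J with a log2 difference of -0.81, also on 1 kept probe. For *Atf4* and *Hsd17b10*, less RNA and a base difference under the probe in A/J cannot be told apart with these arrays. *Nr1h3*, the liver X receptor alpha, was lower in A/J on its brighter probe (-0.61), and its other probe gave -0.17 and did not pass.

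Higher in A/J were *Qprt*, which takes quinolinate toward nicotinamide nucleotides, *Ppargc1a*, a coactivator of fasting genes, and *Agxt*, which transfers the amino group of alanine to glyoxylate. *Qprt* signals ran from 12.41 to 12.91 in A/J and from 11.54 to 12.15 in C57BL/6J, 1.77-fold higher in A/J (adjusted P = 1.5e-06). *Ppargc1a* and *Agxt* had log2 differences of 0.77 and 0.69. In none of the 3 did the strains overlap. Of the chain from tryptophan to nicotinamide nucleotides, *Afmid* and *Qprt* were thus called higher in A/J, *Haao* passed the adjusted P in the lower direction, and *Tdo2*, *Kmo* and *Kynu* did not pass.

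Several partner genes did not pass. *Glul* (glutamine synthetase, which takes up ammonia around the central vein) averaged 9.51 ± 0.475 in A/J and 10.01 ± 0.744 in C57BL/6J (adjusted P = 0.221). In samples 5 to 8 alone *Glul* was lower in A/J, with a log2 difference of -0.79 (adjusted P = 0.000576). That set was chosen with results of these data known, so this P value is description only. *Bcat2*, the transaminase before the *Bckdhb* complex, differed by 0.01, and *Bckdk*, the kinase that turns the complex off, by 0.11. *Mat1a* and *Cbs*, the steps from methionine to cystathionine ahead of *Cth*, differed by 0.03 and 0.17. A second *Cbs* probe gave 0.18 and passed the adjusted P (0.0235). *Gcgr*, the glucagon receptor, differed by 0.03.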

How the data were processed

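The authors processed the arrays with BeadStudio and, by quantile normalization, with lumi; the sources used here name no version, background correction or transform. The deposited log2 values of 25697 probes in 16 samples run from 7.61 to 14.97. Quantile normalization gives every array the same distribution, so total signal holds no information. Precision is limited by the number of arrays, and no batch or scan date is given in the labels. Detection P values were not used here, so the 13060 probes with the highest mean were kept (lowest mean 8.00).

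Genes came from the platform's probe annotation (23978 probes with 1 symbol, 1719 with none), with positions from RefSeq GRCm38.p6. Strain was fitted in R 4.3.3 with limma 3.58.1 (lmFit, then eBayes; 14 residual and 3.11 prior degrees of freedom), with Benjamini-Hochberg adjustment over 13060 probes, and the fit was tested on simulated data. Tables were read with the package data.table (version 1.17.8). Annotation and plots used pandas 2.3.3, matplotlib 3.10.9 and Python 3.11.15. The kept probe with the highest mean stood for a gene. Probe overlap was read from the deposited probe sequences. All 41 members are named, with up to 10 called genes of the other list and a few fixed ones, of which 1 is not reported here; *Tk1* was named after its values were seen. The members and lists were chosen with earlier results of these data known. Alternatives covered the filter, scaling, eBayes settings, array weights, blocks, subsets of samples, fold threshold and probe choice.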

Additional observations from a re-analysis of the deposited data

Results flagged for a closer look

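Samples that stood apart within their strain were sought among 94 groups of 8 samples (each tested member and named gene in each strain), by the gap between an extreme sample and its neighbour; 4 groups had one (4.26%), and chance gives about 1 in 20. *Cth* in A/J sample 5 was 12.51, above 11.24 to 11.84 in the other A/J samples. *Gldc* in C57BL/6J sample 8 was 12.90, below 13.23 to 13.49 in the others of its strain. *Cdo1* in C57BL/6J sample 7, which also held exocrine pancreas signal, was 14.45, above 14.16 to 14.29. *Cbs* in A/J sample 2 was 12.77, above 12.31 to 12.41. Their causes were not tested.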

How the results depend on the processing

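The same 5 genes (*Afmid*, *Bckdhb*, *Csad*, *Cth* and *Hal*) were called with no filter on dim probes, with the 8000 brightest probes, with a filter on the highest single value, with both other centrings, with eBayes trend and robust, with array weights, with unlogged means and without the 3 samples with pancreas signal. The fold threshold set the count: at 2-fold, 2 of the 34 genes (*Bckdhb* and *Csad*), 1 of the other pathway genes and 172 of all genes were called, and with no fold threshold 13, 18 and 2542, of which 1400 were higher and 1142 lower in A/J, against 193 higher and 286 lower among the 479 called at 1.5-fold. With the probe of smallest P, *Afmid* (0.55) fell under the fold threshold and 4 genes were called. Whether sample numbers pair the strains was not settled: same-numbered samples correlated at -0.0147 to 0.539, and 3 of 8 numbers matched best with their own. With the sample number as a replicate block 6 genes were called, *Tdo2* being added (limma adjusted P = 0.0089). That block also takes up the split between samples 1 to 4 and samples 5 to 8, so this P value is description only. Leaving out 1 sample gave 4 to 5 called genes, 12 to 15 past the adjusted P, a median difference of -0.001 to 0.034, 6 to 7 other pathway genes and 470 to 492 of all genes. The differences then ran from 0.57 to 0.71 for *Afmid*, -1.10 to -1.0 for *Bckdhb*, -2.14 to -1.93 for *Csad*, 0.50 to 0.68 for *Cth* and -0.93 to -0.80 for *Hal*. Differences near 0 changed sign in samples 5 to 8 alone for *Cdo1* (-0.01), *Fah* (-0.04), *Otc* (-0.06), *Bcat2* (-0.10) and *Mat1a* (-0.00), and in samples 1 to 4 alone for *Bckdha* (-0.04), *Ivd* (0.08), *Prodh* (0.04), *Aass* (0.12) and *Gcgr* (-0.13). *Aass* also changed sign without the pancreas samples (0.07) and with the probe of smallest P (0.20). The causes were not tested. Over the single genes and all settings other than leaving out 1 sample, 712 values kept their direction and their side of the threshold, 13 gained a call, 13 lost one and 12 changed sign. *Amt* and *Gcsh* lie near the lowest kept signal, which limits the size of difference they can show.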

Other observations

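Bile duct markers, of which 2 of 5 were tested, averaged 7.91 to 8.05 in A/J samples and 8.14 to 8.27 in C57BL/6J samples. The values do not overlap and lie close to the array median of 8.01, and their part in the values of the enzymes was not tested.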
